A study of Mus musculus with 10 samples.

Results

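Ripk1 and 9 further genes of necroptosis and death receptor signaling were described in hematopoietic stem cell (HSC) libraries of mouse bone marrow: Ripk3, Mlkl, Casp8, Fadd, Cflar, Tradd, Birc2, Birc3 and Cyld. They make up 10 of the 52096 genes in the deposited table. Ripk1 was chosen by its low values in the HET libraries, so its difference between the groups is given as a description without a test. The other 9 were chosen by their place in the same signaling complexes.

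The HSCs were sorted as CD48-negative, CD150-positive LSK cells, the lineage-negative fraction that carries Sca-1 and Kit. Of the 10 libraries, 5 came from Nup214fl/+ mice (FL), with 1 floxed Nup214 allele and no Cre. The other 5 came from Nup214fl/+,Tie2-Cre mice (HET), in which Cre driven by the Tie2 promoter is active in blood and endothelial lineages. Every group thus carries the floxed allele, and none carries Cre without it, so effects of Cre and of the allele cannot be told apart. The sources used here give neither ages nor the number of mice per library, so tests measure the spread between libraries. Levels are in FPKM, mapped fragments scaled by transcript length and by library total.

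RIPK1 is a kinase and scaffold that binds the TNF receptor complex through the adaptor TRADD. There cIAP1 and cIAP2, encoded by Birc2 and Birc3, attach ubiquitin chains to it, which favors NF-kB signaling and survival, and the deubiquitinase CYLD removes such chains. When this complex gives way to a cytosolic one, FADD recruits caspase-8, which can start apoptosis, and cFLIP, encoded by Cflar, restrains it. Where caspase-8 is not active, RIPK1 and RIPK3 bind each other through a shared motif, and RIPK3 phosphorylates MLKL, which breaches the plasma membrane in necroptosis. In blood-forming tissue, loss of RIPK1 in mice is known to cost stem cells through these death pathways.

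The 250 bases upstream of the annotated start are shown for 3 members: Ripk1 and Ripk3, kinases that bind each other and whose levels are compared, and Cyld, in whose window the NF-kB motif was found. They are from RefSeq (GRCm38.p6), which held windows for 9 of the 10 members. Ripk1 and Birc2 have a second annotated start each; the second Ripk1 window, at 34002624 to 34002873, holds 4 GC boxes and is not printed. Capitals mark matches on either strand to the GC box GGGCGG or, in Cyld, where the second run of capitals lies, to a kappaB motif.
Ripk1 (chr13:34002113-34002362, plus strand): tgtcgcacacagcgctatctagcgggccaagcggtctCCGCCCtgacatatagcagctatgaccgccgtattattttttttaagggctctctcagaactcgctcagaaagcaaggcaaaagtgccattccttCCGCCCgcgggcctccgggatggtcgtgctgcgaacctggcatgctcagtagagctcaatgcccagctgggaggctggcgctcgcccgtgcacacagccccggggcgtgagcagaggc
Ripk3 (chr14:55788858-55789107, minus strand): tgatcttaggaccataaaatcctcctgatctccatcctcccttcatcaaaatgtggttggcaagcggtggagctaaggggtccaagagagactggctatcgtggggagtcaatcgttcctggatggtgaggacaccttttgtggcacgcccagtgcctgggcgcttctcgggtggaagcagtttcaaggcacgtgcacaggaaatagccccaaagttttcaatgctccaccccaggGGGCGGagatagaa
Cyld (chr8:88696778-88697027, plus strand): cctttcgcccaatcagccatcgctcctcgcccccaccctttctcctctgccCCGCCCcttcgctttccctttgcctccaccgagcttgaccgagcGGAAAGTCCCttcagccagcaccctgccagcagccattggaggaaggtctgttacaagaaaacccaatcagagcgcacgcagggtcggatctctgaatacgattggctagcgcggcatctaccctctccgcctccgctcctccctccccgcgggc
The GC box was found in 6 of the 11 member windows and in 32.7% of all 32851 windows of this length. The kappaB motif was found in 1 member window, against 1.41% of all windows. An interferon-response (IRF) motif was found in 0 of the 11, against 2.98% of all. No 2 of these motifs overlapped in the windows shown, and a match is a match of letters only.

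Libraries FL 5 and HET 1 stood apart from the others of their groups across all genes. On the first principal component of the 13041 tested genes, which held 42.6% of the variance, FL 5 lay at 33.3 among HET 2 to 5 (28.5 to 41.2), and HET 1 lay at -46.4 beside FL 1 to 4 (-42.4 to -19.6). Nup214, the targeted gene, had a mean of 49.4 ± 13.4 FPKM (SD, n = 5) in FL against 16.8 ± 8.89 in HET (exact two-sided permutation p = 0.0159, log2 difference -1.59, each HET library below the FL median). FL 5 (30.0 FPKM) and HET 1 (31.2 FPKM) were in the opposite order to their labels, but they were close to each other and both lay between the group means. Whether these libraries carry each other's labels was not tested, and the labels used here name no batch, so the FL and HET means hold only as far as the labels do. Calls are therefore also given without both. Leaving them out rests on their values in these same data, so adjusted p-values without them describe and are no independent test. The HSC genes Procr, Slamf1 and Kit were above 0 in every library, but Cd48, whose protein the sort selected against, held 55.8 to 115 FPKM and Mpo, of neutrophil granules, 6828 to 11727 FPKM.

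Ripk1 was low in 4 HET libraries and in FL 5. FL 1 to 5 held 24.3, 22.2, 21.4, 19.5 and 3.94 FPKM, and HET 1 to 5 held 12.2, 3.79, 4.79, 4.1 and 4.67 FPKM. FL 1 to 4 were high, HET 1 lay between, and FL 5 fell within the range of HET 2 to 5, so the groups overlapped. The FL mean was 18.3 ± 8.20 FPKM (SD, n = 5) and the HET mean 5.91 ± 3.54 FPKM, or 32.3% of it. The log2 difference, HET minus FL on the log2(FPKM + 1) scale, was -1.40 (SE 0.45), where the median of all tested genes was -0.17. It was -2.10 without FL 5 and HET 1. These values chose the gene and are no evidence of a difference. Of 13041 tested genes, 77, Ripk1 included, had a difference as low or lower.

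Ripk1 (ENSMUSG00000021408) lies on chromosome 13 from 34002363 to 34037147 on the plus strand of GRCm38. Its first bases overlap the start of Serpinb6a on the other strand, and 2 processed pseudogenes lie inside it. The labels name no strand marking, so reads of overlapping genes cannot be told apart. Gm17084, the pseudogene inside Ripk1 on its strand, was lowest of FL in FL 5, with 2.38, 3.35, 5.21, 2.58 and 1.92 FPKM in FL 1 to 5 and 1.99, 0, 0, 1.86 and 0.99 FPKM in HET 1 to 5. The neighbors Serpinb6a and Bphl were not as low in FL 5 as Ripk1 was. Serpinb6a held 19.2 to 23.6 FPKM in FL 1 to 4, 18.3 in FL 5, 29.2 in HET 1 and 13.2 to 18.5 in HET 2 to 5. Bphl, the next gene downstream on the same strand, held 37.3 to 51.8 FPKM in FL 1 to 4, 34.3 in FL 5, 41.0 in HET 1 and 30.6 to 32.8 in HET 2, 3 and 5, with 33.7 in HET 4.

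**Figure D1:**
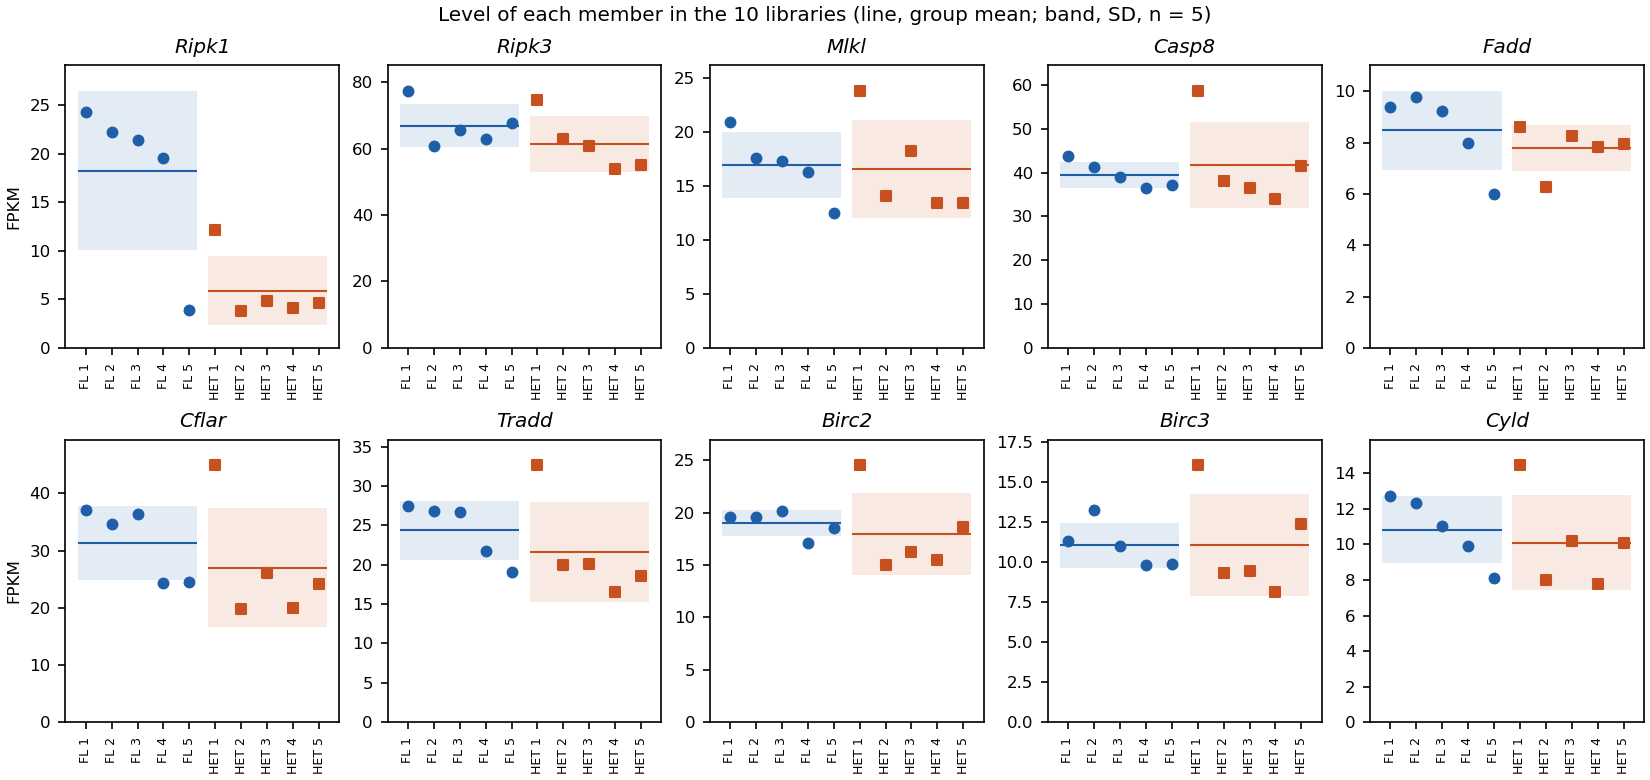
Level (FPKM, linear axis from 0) of each of the 10 members in the 10 libraries, with FL as circles and HET as squares, the group mean as a line and the SD as a band (n = 5). Ripk1 splits into FL 1 to 4 (19.5 to 24.3 FPKM) and FL 5 with HET 2 to 5 (3.79 to 4.79 FPKM), with HET 1 between. The groups overlap for each of the 10 members. Of the 9 members other than Ripk1, 7 are highest in HET 1, as are 37.1% of tested genes.

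The order of levels among the members changed at Ripk1. FPKM is scaled by length, so levels can be set side by side. Ripk3 was the highest and Casp8 the second highest member in all 10 libraries. Ripk1 was the 5th in FL 1 to 4, the 9th in HET 1 and the 10th, the lowest, in FL 5 and HET 2 to 5. Between, by mean over the 10 libraries, came Cflar (29.2 FPKM), Tradd (23.0), Birc2 (18.5) and Mlkl (16.8), and then Birc3 (11.04), Cyld (10.5) and Fadd (8.14). Of these neighbors, Cflar exceeded Tradd in 9 libraries, Tradd exceeded Birc2 in 9, Birc2 exceeded Mlkl in 8 and Cyld exceeded Fadd in 9. Birc3 exceeded Cyld in only 6, and their means of 11.04 ± 2.32 and 10.5 ± 2.21 FPKM (SD, n = 10) differed by less than their spread.

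Ripk3, the kinase that carries the necroptotic signal, did not share the pattern of Ripk1. FL 1 to 5 held 77.3, 60.7, 65.6, 62.9 and 67.8 FPKM, and HET 1 to 5 held 74.6, 62.9, 60.8, 53.7 and 55.0 FPKM. The groups overlapped, and FL 5 lay inside the FL range. The log2 difference was -0.13 (SE 0.12, limma adjusted p = 0.597), and 4 of 5 HET libraries were below the FL median.

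Mlkl, the membrane-breaching effector, held 21, 17.6, 17.3, 16.3 and 12.5 FPKM in FL 1 to 5 and 23.8, 14.1, 18.3, 13.4 and 13.4 FPKM in HET 1 to 5. FL 5 was the lowest and HET 1 the highest of all 10. The log2 difference was -0.05 (SE 0.19, limma adjusted p = 0.907). The ratio of Mlkl to Ripk3 within a library was 0.254 ± 0.0406 (SD, n = 5) in FL against 0.267 ± 0.0407 in HET, a difference smaller than the spread. The ratio of Ripk1 to Ripk3 was 0.311 to 0.366 in FL 1 to 4, 0.0581 in FL 5, 0.163 in HET 1 and 0.0603 to 0.0849 in HET 2 to 5.

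Casp8, the initiator protease that blocks necroptosis, held 43.7, 41.2, 39.1, 36.5 and 37.1 FPKM in FL 1 to 5 and 58.6, 38.2, 36.5, 34.0 and 41.6 FPKM in HET 1 to 5. HET 1 alone lay clearly above the rest. The log2 difference was 0.06 (SE 0.14, limma adjusted p = 0.851). Fadd, the adaptor that brings caspase-8 to the complex, ran from 6.02 to 9.77 FPKM in FL and from 6.29 to 8.62 in HET. Each HET library was under the median of FL for Fadd, but inside the FL range (log2 difference -0.10, SE 0.16, limma adjusted p = 0.745). Faddos, an annotated antisense gene, overlaps Fadd.

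Cflar, the caspase-8 inhibitor, held 37.1, 34.6, 36.4, 24.3 and 24.5 FPKM in FL 1 to 5 and 44.9, 19.8, 26.2, 19.9 and 24.2 FPKM in HET 1 to 5. FL 4 and FL 5 lay among HET 2 to 5, and HET 1 was the highest of all. The log2 difference was -0.25 (SE 0.22, limma adjusted p = 0.589), the lowest p of the 9. The ratio of Cflar to Casp8, which lie near each other on chromosome 1, was 0.789 ± 0.12 in FL and 0.634 ± 0.103 in HET (SD, n = 5). It ran from 0.660 to 0.929 in FL and from 0.520 to 0.766 in HET, so the groups overlapped.

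**Figure D2:**
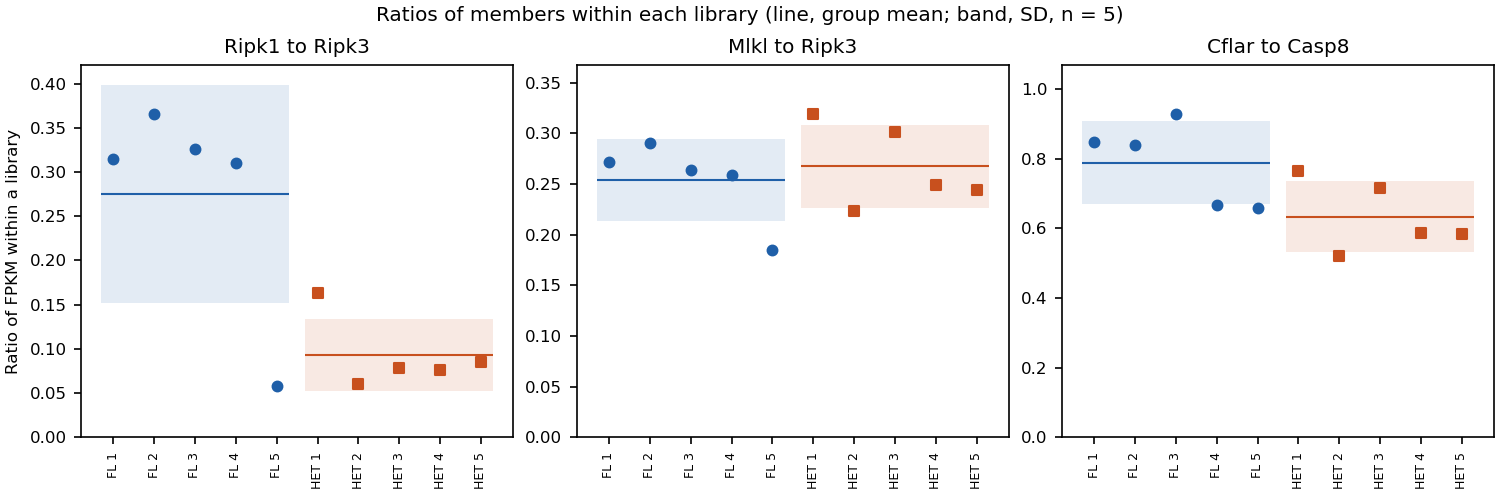
Ratio of FPKM of 2 members within each library (linear axis from 0) for Ripk1 to Ripk3, Mlkl to Ripk3 and Cflar to Casp8, with FL as circles, HET as squares, the group mean as a line and the SD as a band (n = 5). The ratio of Ripk1 to Ripk3 falls to at most 0.0849 in FL 5 and HET 2 to 5, while that of Mlkl to Ripk3 lies between 0.184 and 0.319 in all libraries.

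The genes of the receptor-bound complex gave a like picture. Tradd held 27.5, 26.9, 26.7, 21.8 and 19.1 FPKM in FL 1 to 5 and 32.7, 19.95, 20.1, 16.5 and 18.6 FPKM in HET 1 to 5 (log2 difference -0.19, SE 0.18, limma adjusted p = 0.605). HET 1 exceeded every FL library, and FL 5 lay within the range of HET 2 to 5. Birc2 ran from 17.1 to 20.2 FPKM in FL and from 15.0 to 24.6 in HET, and Birc3 from 9.81 to 13.3 and from 8.14 to 16.03. The ratio of Birc2 to Birc3 was 1.74 ± 0.156 in FL and 1.66 ± 0.163 in HET. These ligase genes are paralogs next to each other on chromosome 9, and the sources used here do not say how shared reads were assigned, so their split is uncertain. Cyld ran from 8.12 to 12.7 FPKM in FL and from 7.8 to 14.5 in HET. The limma adjusted p was 0.739 for Birc2 (log2 difference -0.10), 0.940 for Birc3 (-0.03) and 0.768 for Cyld (-0.11).

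All 10 members passed the filter of at least 1 FPKM in at least 5 libraries, and of the 9 tested for a difference 0 passed at an adjusted p of 0.05. In the whole fit 0 of 13041 genes passed, a background of 0%, and 1355 genes, 10.4%, had an unadjusted p under 0.05. Of the 9, 8 had a lower fitted value in HET, where 77.3% of all tested genes did, with a median log2 difference of -0.10 against -0.17 for all. HET 1 was the highest of all 10 libraries for 7 of 10 members and for 37.1% of tested genes. It was the highest HET library for 10 of 10 members and for 71.3% of tested genes. FL 5 was the lowest FL library for 5 of 10 members and for 63.5% of tested genes.

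With sample quality weights 4 of the 9 passed (Cflar, Tradd, Birc2 and Cyld), where 52.7% of all tested genes passed. The weights, drawn from these same data, were 0.236 for FL 5, 0.149 for HET 1 and 0.785 to 3.38 for the others. This setting is thus close to leaving both out and is not independent of it. With FL 5 alone left out 0 of the 9 passed, where 3.14% of all did. Without FL 5 and HET 1, 2 of the 9 passed, where 45.7% of all tested genes passed. Tradd fell by 0.43 on the log2 scale (SE 0.11, limma adjusted p = 0.00827) and Cflar fell by 0.52 (SE 0.15, adjusted p = 0.0154), beside a median of -0.33 for all genes. Median-ratio scaling, which divides each library by the median ratio of its genes to their geometric means, gave an all-gene median of 0.005 and 0 of the 9 passed, where 0.00767% of all genes passed. With this scaling and without both libraries the all-gene median was 0.007, Tradd stood at -0.05 (adjusted p = 0.641) and Cflar at -0.15 (0.371), and neither passed. Casp8 rose by 0.29 (SE 0.08, limma adjusted p = 0.0308) there, where 25.6% of all tested genes passed and 12.3% passed upward. Its value as deposited was 0.06 with all 10 libraries and -0.09 without both, so its direction rests on the scaling and on the libraries kept. Ripk1 stood at -1.75 (SE 0.08) under both choices.

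**Figure D3:**
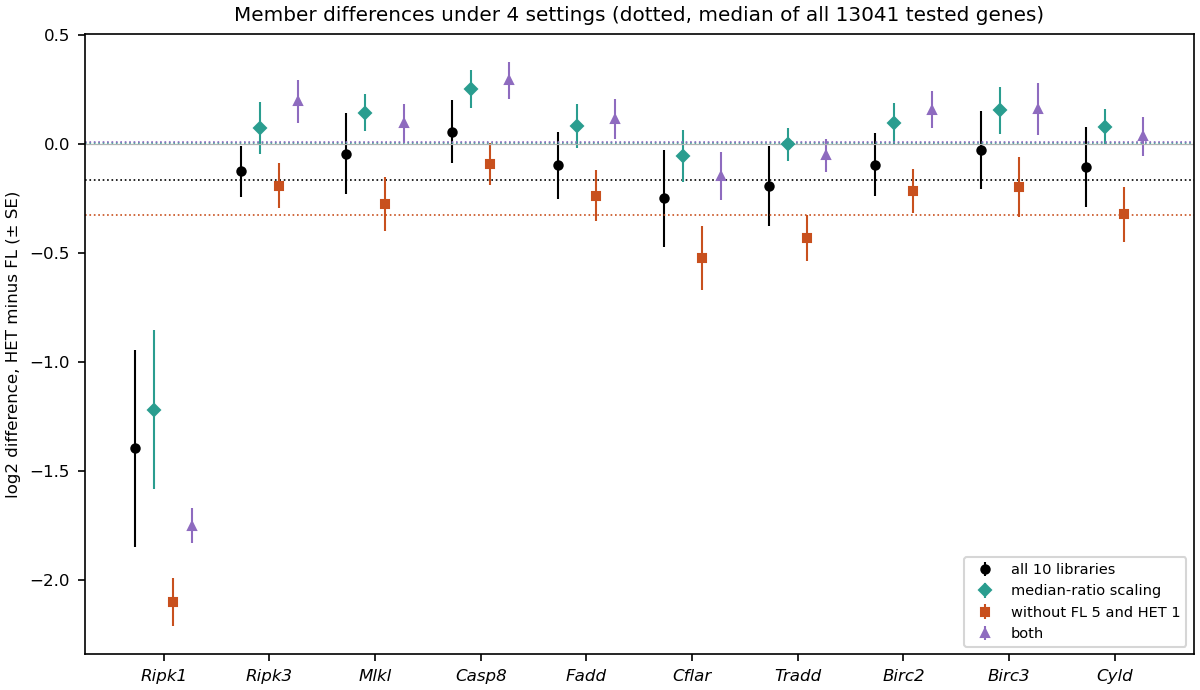
Log2 difference, HET minus FL, of each member with its SE as a bar, for all 10 libraries, with median-ratio scaling, without FL 5 and HET 1, and with both choices; dotted lines mark the median of all tested genes in each setting (-0.17, 0.005, -0.33 and 0.007). Ripk1 lies between -2.10 and -1.22 in these 4 settings, and the other 9 members lie within 0.6 of 0.

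The profile of Ripk1 was compared with 10638 other tested protein-coding genes by the root mean square difference of log2(FPKM + 1), each centered on its mean over the 10 libraries. The 5 most like genes were Mlycd (0.141), malonyl-CoA decarboxylase, Casc3 (0.157), of the exon junction complex, Rhobtb2 (0.160), Ubqln2 (0.161), a ubiquitin-binding shuttle to the proteasome, and Sympk (0.167), a scaffold of mRNA 3′-end processing. Mlycd held 20.1, 20.4, 18.6, 16.5 and 3.6 FPKM in FL 1 to 5 and 10.8, 4.28, 4.97, 3.25 and 3.44 FPKM in HET 1 to 5. Casc3 held 17.5 to 22.3 FPKM in FL 1 to 4, 2.99 in FL 5, 12.2 in HET 1 and 2.5 to 3.49 in HET 2 to 5. These genes were high in FL 1 to 4, lower in HET 1 and lowest in FL 5 and HET 2 to 5, as Ripk1 was. They were picked for this likeness, so the shared pattern follows from the choice. In all, 88 of the 10638 genes lay within 0.3 of the Ripk1 profile. No other member did: the nearest was Cflar, at 0.781 and place 3143, and the farthest Casp8, at 0.961 and place 8251.

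**Figure D4:**
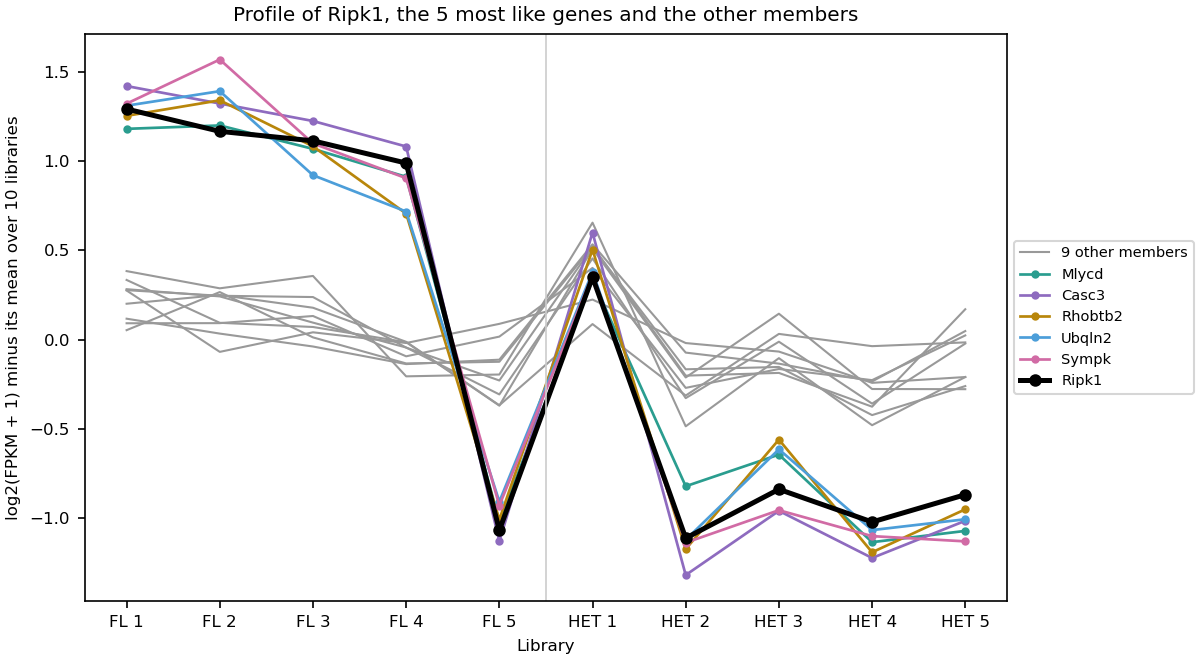
Log2(FPKM + 1) of each gene minus its mean over the 10 libraries, for Ripk1 (black), the 5 genes most like it (colors) and the 9 other members (grey). Ripk1 and the 5 like genes, picked for this likeness, drop in FL 5 and HET 2 to 5 and stand between in HET 1. The other members form a flatter band, with 7 of 9 highest in HET 1.

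Among receptors, Tnfrsf1a, which encodes the TNF receptor that assembles the RIPK1 complex, averaged 35.2 ± 4.57 FPKM (SD, n = 5) in FL against 31.6 ± 10.3 in HET (limma adjusted p = 0.619). Tnfrsf1b, the second TNF receptor, which lacks a death domain, held 10.9 ± 1.31 and 13.3 ± 0.849 FPKM (log2 difference 0.27, SE 0.12, limma adjusted p = 0.472). Each HET library exceeded its FL median, although FL 5, at 12.6 FPKM, reached into the HET range of 12.5 to 14.6. Ltbr, the lymphotoxin beta receptor, held 18.5 ± 4.05 and 14.9 ± 5.23 FPKM, and Fas 2.104 ± 0.474 and 2.11 ± 0.967. The TRAIL receptor gene Tnfrsf10b, at 1.04 ± 0.475 and 1.01 ± 0.519 FPKM, was below the filter. Of the 11 receptors listed, 7 were tested, 5 lower and 2 higher, with a median of -0.14 and 0 called. Without FL 5 and HET 1, where 45.7% of all tested genes passed, 4 of the 7 passed. Ltbr fell by 0.64 on the log2 scale (limma adjusted p = 0.00219), Tnfrsf26 fell by 0.52 (0.0397) and Tnfrsf1a fell by 0.43 (0.00717), while Tnfrsf1b rose by 0.29 (0.0350). With median-ratio scaling as well, 2 of the 7 passed, both upward, where 25.6% of all tested genes passed and 12.3% passed upward. Of these, Tnfrsf1b rose by 0.65 (limma adjusted p = 0.000731). Ltbr (0.0731), Tnfrsf26 (0.499) and Tnfrsf1a (0.778) did not pass.

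Among ligands, Ltb, which encodes lymphotoxin beta, had the highest level, with 23.8 ± 5.61 FPKM (SD, n = 5) in FL against 25.6 ± 12.5 in HET and 44.4 FPKM in HET 1. Tnf held 1.23 ± 0.233 FPKM in FL and 1.56 ± 0.832 in HET, with 3 FPKM in HET 1 and at most 1.54 in the other 9 libraries. Tnfsf10, which encodes TRAIL, held 4.63 ± 0.779 and 4.39 ± 1.39 FPKM, and Tnfsf14 4.35 ± 0.236 and 4.91 ± 1.073. Fasl, at 0.106 ± 0.0969 and 0.35 ± 0.275 FPKM, was below the filter. Of 8 ligands 4 were tested, 1 lower and 3 higher, with 0 called. Without FL 5 and HET 1, 0 were called, where 45.7% of all tested genes passed. With median-ratio scaling as well, 1 of the 4 was called, where 25.6% of all tested genes passed and 12.3% passed upward. It was Tnfsf14, which rose by 0.45 (limma adjusted p = 0.0282).

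The other genes of the receptor complex comprise TRAF adaptors, linear ubiquitin ligase subunits, and the TAK1 and IKK kinases. Of 24, 23 were tested, 18 lower and 5 higher, with a median log2 difference of -0.15 against -0.17 for all genes and 0 called. Chuk, the IKK alpha kinase, held 9.65 ± 1.56 FPKM in FL and 6.73 ± 1.09 in HET (log2 difference -0.46, SE 0.16, limma adjusted p = 0.472), below the FL median in all 5 HET libraries. Tab2, a TAK1 adaptor, held 6.92 ± 1.03 and 5.27 ± 1.57 FPKM. Rnf31, the catalytic subunit of the linear ubiquitin ligase, held 12.6 ± 2.06 and 9.77 ± 2.90. Traf2 held 21.5 ± 3.09 and 19.0 ± 4.004, Xiap 5.30 ± 1.22 and 3.88 ± 1.41, and the ubiquitin-editing gene Tnfaip3 5.54 ± 2.80 and 4.72 ± 1.34. Without FL 5 and HET 1, 10 of the 23 passed downward, where 42.2% of all tested genes did. With median-ratio scaling as well, 2 passed downward and 4 upward, where 25.6% of all tested genes passed and 12.3% passed upward.

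Of the RHIM sensors and necroptosis regulators, 18 of 19 were tested, 12 lower and 6 higher, with a median of -0.10 and 0 called. Zbp1, a nucleic acid sensor that can engage RIPK3, held 3.45 ± 0.931 FPKM in FL and 4.05 ± 1.79 in HET, and Ticam1, the TLR3 adaptor TRIF, 4.44 ± 0.362 and 4.28 ± 1.01. Chmp4b, an ESCRT-III gene of membrane repair, held 4.18, 4.07, 5.1, 3.73 and 1.21 FPKM in FL 1 to 5 and 3.45, 0.87, 0.93, 0.75 and 0.68 FPKM in HET 1 to 5. Its FL 5 and HET 1 values crossed the groups as those of Ripk1 did (log2 difference -1.03, SE 0.33, limma adjusted p = 0.472). Without FL 5 alone, where 3.14% of all genes passed, it passed (adjusted p = 0.0322). Chmp2a, of the same complex, held 79.8 ± 8.73 and 66.6 ± 12.9 FPKM, and the casein kinase gene Csnk1d 44.9 ± 9.85 and 34.0 ± 7.68. Without FL 5 and HET 1, 7 of the 18 passed downward and 1 upward, where 42.2% of all tested genes passed downward and 45.7% in all. Chmp4b fell by 1.54 (limma adjusted p = 2.96e-05), Csnk1d by 0.64 (0.00111) and Chmp2a by 0.44 (0.00174). With median-ratio scaling as well, 1 of the 18 passed downward and 4 upward, where 25.6% of all tested genes passed and 12.3% passed upward. The list median was 0.15 there. Chmp4b fell by 1.29 (limma adjusted p = 0.000114), and Csnk1d (0.0505) and Chmp2a (0.627) did not pass.

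Among 15 apoptosis executioners, all tested, 14 were lower and 1 higher, with a median of -0.15 and 0 called. Endog, a mitochondrial nuclease gene, held 16, 18.9, 14.9, 10.1 and 2.39 FPKM in FL 1 to 5 and 6.19, 4.98, 7.6, 3.59 and 3.29 FPKM in HET 1 to 5. FL 5 was the lowest of all 10 (log2 difference -0.96, SE 0.44, limma adjusted p = 0.472, and adjusted p = 0.0144 without FL 5, where 3.14% of all genes passed). Parp1, a DNA repair enzyme that is cleaved in apoptosis, held 70.6 ± 6.96 and 83.2 ± 9.08 FPKM (log2 difference 0.23, SE 0.11, adjusted p = 0.472), and Cycs, cytochrome c, 134 ± 19.0 and 107 ± 26.5. Without FL 5 and HET 1, 6 of the 15 passed downward and 1 upward, where 42.2% of all tested genes passed downward and 45.7% in all. Endog fell by 1.47 (limma adjusted p = 0.00133) and Parp1 rose by 0.31 (0.0379). With median-ratio scaling as well, 2 of the 15 passed downward and 1 upward, where 25.6% of all tested genes passed and 12.3% passed upward. Of these, Endog fell by 1.13 (limma adjusted p = 0.00422) and Parp1 rose by 0.69 (0.00402).

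Of 14 pyroptosis genes 11 were tested, 9 lower and 2 higher, with a median of -0.08 and 0 called. Gsdmd, the pore-forming gasdermin, held 37.6 ± 5.57 FPKM in FL and 39.4 ± 6.54 in HET. Its relative Gsdme held 44.3 ± 14.6 and 32.4 ± 13.1. Ninj1, which ruptures the membrane of dying cells, held 165 ± 19.7 and 137 ± 33.2, and Il18 10.9 ± 1.77 and 9.47 ± 5.41. Without FL 5 and HET 1 the median was -0.41, against -0.33 for all genes. Of the 11, 4 passed there, all downward, where 42.2% of all tested genes passed downward. Gsdme fell by 0.87 (limma adjusted p = 0.000933) and Ninj1 by 0.44 (0.0182). With median-ratio scaling as well, 1 of the 11 passed downward and 1 upward, where 25.6% of all tested genes passed and 12.3% passed upward. Gsdme fell by 0.49 (limma adjusted p = 0.00691) and Ninj1 (0.817) did not pass. Ripk2, the RIP kinase of NOD receptors, held 3.88 ± 1.20 and 3.09 ± 1.02 (log2 difference -0.25, SE 0.22, limma adjusted p = 0.586). Ripk4 stayed at or below 0.27 FPKM.

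**Figure D5:**
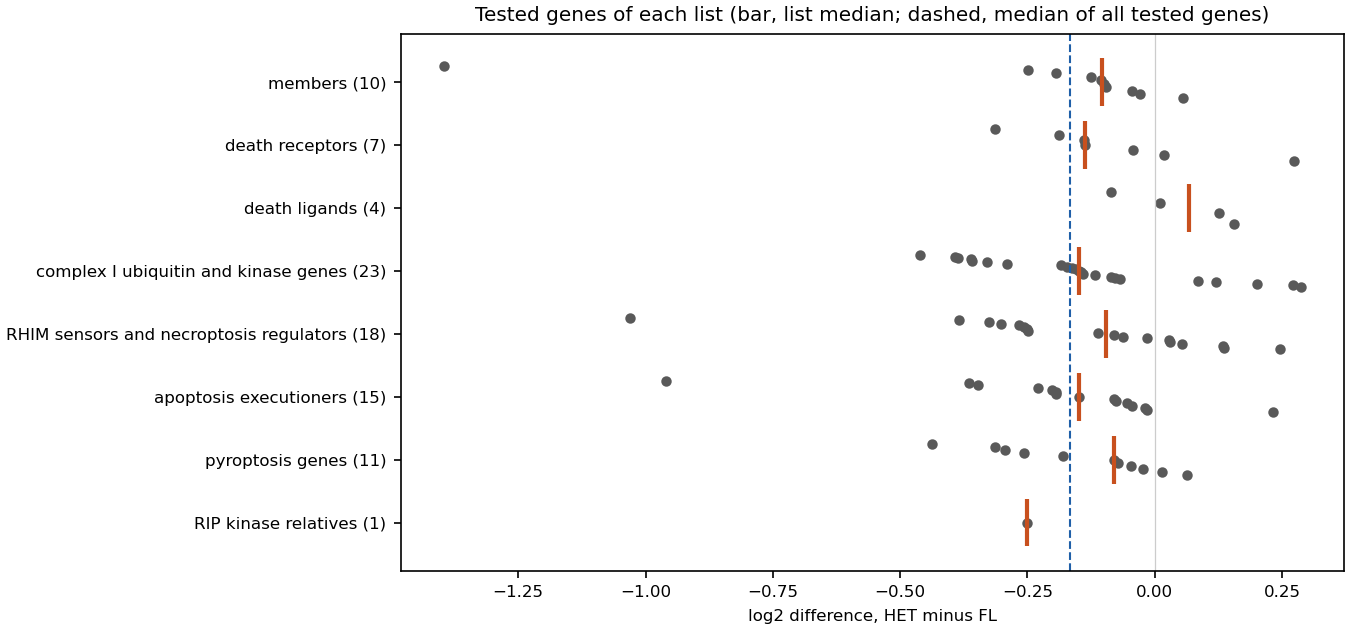
Log2 difference, HET minus FL, of the tested genes of each list (points, with the number tested in parentheses), the median of each list (bar) and the median of all tested genes (dashed line at -0.17). Ripk1, Chmp4b and Endog lie at -1.40, -1.03 and -0.96, and every other gene plotted lies between -0.5 and 0.3.

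Summed levels of markers of other cells also varied between these libraries, with 0 genes of the lists called in the fit of all 10. Of all tested genes, 77.3% had a lower fitted value in HET, which stands beside the counts of direction below. The sum of 7 megakaryocyte genes was 1825 to 2420 FPKM in FL, 1801 in HET 1 and 987 to 1490 in HET 2 to 5. Of these genes 7 of 7 were lower in HET, and HET 1 lay just under the lowest FL sum. The summed level of 12 monocyte and macrophage genes, all of which reached 1 FPKM in at least 1 library, was 434 to 643 FPKM in FL, 706 in HET 1 and 340 to 501 in HET 2 to 5, with 10 of 12 lower in HET. FL 5, where Ripk1 was low, held 635 FPKM of this sum. The sum of 10 neutrophil genes was 111 to 308 FPKM in FL and 210 to 765 in HET, with 10 of 10 higher. None of the genes in these lists was at 0 in all libraries. The sum of 9 B and plasma cell genes was 2625 to 10911 FPKM in FL and 8069 to 101911 in HET, with 5 of 6 tested higher. Erythroid genes summed to 2344 to 3269 FPKM in FL and 1506 to 4321 in HET, with 7 of 8 lower. T and NK cell genes summed to 407 to 725 FPKM in FL and 378 to 732 in HET, with 3 of 4 tested higher. Endothelial genes summed to 111 to 152 FPKM in FL and 109 to 183 in HET, with 4 of 5 tested lower. The part of these cells in the levels of the members was not tested. In such bulk libraries, fewer cells of a type and less RNA per cell cannot be told apart.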

How the data were processed

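RNA was measured by sequencing in 10 libraries. Per the labels' protocols, RNA was extracted with a miRNeasy kit, then amplified after Geo-seq, a method for few cells, before TruePrep V2 library construction. The authors deposited FPKM per Ensembl gene. Per the submitters' processing notes, mm10 was the build, and DESeq2, HTSeq, Cufflinks 2.1.1 and Bowtie 0.12.9 are named without roles. Read depth is unknown from the file, so no counting intervals were computed; FPKM sums were 896054 to 1066190 per library.

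All 52096 identifiers matched GENCODE M21 (GRCm38). Genes with at least 1 FPKM in at least 5 libraries (13041) were fitted as log2(FPKM + 1) with limma 3.58.1 in R 4.3.3 (trend, robust, genotype as the only term) and adjusted by Benjamini-Hochberg over all of them. This scale understates changes of low genes. The code was tested on simulated data. Nup214 was compared by an exact permutation test over 252 assignments (scipy 1.17.1). No library was a duplicate: any pair shared at most 0.767% identical values.

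The members and lists were chosen with earlier results of these data known. Named were all members, the 3 genes of each list with the smallest p, the 5 genes most like Ripk1 and fixed receptors, ligands and sensors. Median-ratio scaling without FL 5 and HET 1 was added after seeing the data. One gene that this rule names is not reported here. Ltb, Tnfrsf26, Ripk4 and the Ripk1 neighbors were named after their values were seen.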

Additional observations from a re-analysis of the deposited data

Results flagged for a closer look

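Within groups of 5, single libraries stood far from the other 4 by Dixon's test (critical value 0.710) in 14 of 70 groups tested. Chance flags about 1 in 20 independent groups, but these are not independent: they share the same libraries, and 5 of the 14 are Ripk1 values, which chose the gene, or ratios of them. All 14 were FL 5 or HET 1. FL 5 was low for Ripk1 (3.94 FPKM), for the ratio of Ripk1 to Ripk3 (0.0581), for that of Ripk1 to Casp8 (0.106) and for Ltbr (11.3 FPKM). HET 1 was high for Ripk1 (12.2 FPKM), the ratio of Ripk1 to Ripk3 (0.163), Cflar (44.9 FPKM), Tradd (32.7 FPKM), Tnfrsf1a (49.5 FPKM), Tnf (3 FPKM), Rnf31 (14.9 FPKM), Chmp4b (3.45 FPKM), Csnk1d (47.6 FPKM) and Chmp2a (89.5 FPKM).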

How the results depend on the processing

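Ripk1 stayed lower in HET in all 20 alternatives, from -2.10 without FL 5 and HET 1 to -1.22 with median-ratio scaling. With 1 library left out it ran from -1.84 to -1.25. The gene was chosen by these same values, so its direction in these settings is a description and no evidence of a difference. Its spread between libraries of a group was 0.819 on the log2 scale. Of all genes 1 passed with median-ratio scaling, 6869 with sample quality weights, 5954 without FL 5 and HET 1 and 3344 with scaling as well, and from 0 to 409 with 1 library left out, the highest without FL 5. Of the 9 members other than Ripk1, 4 passed with weights (Cflar, Tradd, Birc2 and Cyld, downward), 2 without FL 5 and HET 1, and 1 with scaling as well, and 0 with any 1 library left out. The limma adjusted p ran from 0.00590 to 0.862 for Cflar and from 0.00736 to 0.990 for Tradd.

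Signs turned with median-ratio scaling for Ripk3 (0.071), Mlkl (0.14), Fadd (0.082), Birc2 (0.094), Birc3 (0.15), Cyld (0.075), Tnfrsf1a (0.0060) and Tnfsf10 (0.075). They turned with scaling and without FL 5 and HET 1 for Ripk3 (0.20), Mlkl (0.094), Fadd (0.11), Birc2 (0.16), Birc3 (0.16), Cyld (0.034), Tnfsf10 (0.017) and Cycs (0.11). They turned with weights for Casp8 (-0.089) and Tnf (-0.11), and without FL 5 and HET 1 for Casp8 (-0.092) and Tnf (-0.069). With 1 library left out, differences ran from -0.18 to 0.032 for Mlkl, from -0.071 to 0.12 for Casp8, from -0.16 to 0.061 for Birc3, from -0.019 to 0.25 for Tnf and from -0.22 to 0.0043 for Tnfsf10. The scaling itself moved the median of all genes from -0.17 to 0.005. For the other turns the cause was not tested.

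FL and HET share replicate numbers. Deviations of same-numbered libraries correlated at 0.214, -0.172, -0.158, 0.230 and 0.146 for numbers 1 to 5. HET 1, 4 and 5 correlated best with the FL library of their own number, and HET 2 and 3 did not. Whether the numbers mark pairs cannot be told from this, and the labels used here state no pairing. With the replicate block 0 genes and 0 members passed, and the exact permutation p of Nup214 (log2 difference -1.59) was 0.0625, the smallest that 5 pairs allow.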
